A study of Mus musculus with 6 samples.

Results

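Heat shock proteins and their DnaJ co-chaperones are described here in 3 populations of CD4 T cells that had shared the same mouse hosts. Members were genes whose symbol begins Hspa, Hspb, Hspd, Hspe, Hsph or Hsp90, or Dnaja, Dnajb or Dnajc followed by a digit. Only probe sets annotated to 1 symbol counted, and each gene was represented by its brightest probe set, judged by the mean of all 6 arrays. The rule found 72 genes, 28 with Hsp names and 44 with Dnaj names, among 18193 genes on the array. Of these, 58 read above the median of all values (5.48 on the log2 scale) in at least 2 arrays and were tested, as were 11015 genes in all. Among the 72, 3 were taken in by name and do not stand for chaperones of these families: Hspbp1 is an exchange factor that acts on Hsp70, Hspbap1 is a partner of a small heat shock protein, and Hspb11 encodes a subunit of the intraflagellar transport machinery.

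The hosts were BALB/c mice without Rag1, which make no T or B cells, and every group came from hosts given wild-type natural regulatory T cells (nTreg) together with 500000 wild-type regulatory T cells derived in culture (iTreg). Donor cells carried an EGFP reporter of Foxp3, the regulatory T cell transcription factor, and the Thy1.1 allele marked cells of culture origin. At 125 days, CD4 cells from spleen and mesenteric lymph node of 14 hosts were sorted into nTreg (EGFP without Thy1.1), iTreg (EGFP with Thy1.1) and ex-iTreg (Thy1.1 without EGFP, cells that no longer showed the reporter). Each population gave 2 arrays, each called a replicate pool in the labels, and host age is not given in the sources used here. Nothing says whether the pools held separate mice, so p-values measure the spread between these arrays, which may be technical. In RNA from a sorted pool, fewer cells of a type and less RNA per cell cannot be told apart.

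Chaperones bind unfolded stretches of other proteins and help them fold, move or be degraded. Hsp70 proteins do this in a cycle of ATP hydrolysis that J-domain (DnaJ) proteins start and nucleotide exchange factors end, and Hsp90 proteins take over clients such as kinases and steroid receptors. Separate sets serve the cytosol, the endoplasmic reticulum (ER) and mitochondria. Heat shock factors induce the cytosolic set, and the unfolded protein response induces the ER set; in T cells both systems also respond to activation and secretion.

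Promoters of members were searched for the letters of each response. RefSeq windows (GRCm38.p6), 300 bases from 250 before to 50 after a gene's start, were matched by symbol for 59 of the 72 members. The first motif was a heat shock element of inverted repeats, GAANNTTCNNGAA, searched on both strands. It occurred in 4 of 59 members (6.78%), Hspd1, Hspe1, Hsph1 and Dnajb6, and in 179 of 27025 genes (0.662%). Its shorter core TTCNNGAA, which lies within it, occurred in 10.2% of members and 9.6% of genes. The second was the ER stress element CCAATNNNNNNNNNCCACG on both strands, found in 3 members (5.08%), Dnajc3, Hspa5 and Hsp90b1, and in 37 genes (0.137%). A match is a description of letters, not of binding, and no link of letters to expression was tested. No heat shock element match lay in the windows of Hspa1a, Hspa1b, Dnajb1 or Hspb1. Among the 13 members without a window, which were not searched, were Hsp90aa1, Hspa8 and Hspa9. Only exact letters within these windows were sought. Shown first is the window of Hspe1 (chr1:55087898-55088197, plus strand), of which 285 bases also lie in the window of its neighbour Hspd1 on the opposite strand; capitals mark 2 overlapping heat shock element matches.
Hspe1: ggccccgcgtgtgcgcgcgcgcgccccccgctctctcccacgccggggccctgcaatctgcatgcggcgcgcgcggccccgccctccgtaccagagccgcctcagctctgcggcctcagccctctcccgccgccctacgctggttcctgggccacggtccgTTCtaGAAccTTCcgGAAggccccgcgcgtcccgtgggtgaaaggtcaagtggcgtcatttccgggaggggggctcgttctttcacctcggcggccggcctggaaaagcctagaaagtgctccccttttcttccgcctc
In the 13-base matches of the other members, capitals mark the fixed letters; Hspd1 holds the reverse strand of the Hspe1 matches, the Dnajb6 match starts 46 or 127 bases before its annotated starts and the Hsph1 match 15 or 36 bases after them.
Dnajb6: GAAtcTTCcgGAA
Hsph1: TTCtgGAAagTTC
The next windows are those of Dnajc3 (chr14:118937682-118937981, plus strand) and Hspa5 (chr2:34771840-34772139, plus strand), with the ER stress element in capitals. They are shown because, on the probe sets used, the first gene was called in every contrast and the second in none.
Dnajc3: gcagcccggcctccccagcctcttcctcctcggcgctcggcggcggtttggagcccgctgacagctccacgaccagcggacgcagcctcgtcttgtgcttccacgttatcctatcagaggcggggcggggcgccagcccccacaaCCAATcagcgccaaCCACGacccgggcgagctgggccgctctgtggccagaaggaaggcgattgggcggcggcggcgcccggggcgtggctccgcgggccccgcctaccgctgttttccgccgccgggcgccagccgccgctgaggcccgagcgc
Hspa5: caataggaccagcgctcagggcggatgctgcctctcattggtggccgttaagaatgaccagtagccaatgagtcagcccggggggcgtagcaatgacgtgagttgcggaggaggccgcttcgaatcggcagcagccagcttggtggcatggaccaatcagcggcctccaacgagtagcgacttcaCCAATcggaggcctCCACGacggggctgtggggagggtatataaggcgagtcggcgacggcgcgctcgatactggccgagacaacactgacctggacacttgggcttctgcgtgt
Hsp90b1, which encodes the ER form of Hsp90, held 2 matches, 212 and 107 bases before its start.
Hsp90b1 first match: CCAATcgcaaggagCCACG
Hsp90b1 second match: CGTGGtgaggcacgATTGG

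Several measures of the arrays themselves differed between populations. Poly-A controls, spiked into RNA before labelling, read 10.03 and 10.12 in nTreg, 11.37 and 11.35 in iTreg and 8.81 and 8.94 in ex-iTreg arrays (mean log2 of 27 probe sets). The gap between 3′ and 5′ probe sets of Gapdh was 0.15 in both nTreg arrays, 0.38 and 0.51 in iTreg and 0.00 and -0.04 in ex-iTreg arrays. T cell genes were well measured (Cd3d between 12.94 and 13.12), while the Foxp3 probe set read between 3.99 and 4.30, near background in all arrays, and could not check the sort. For scale, limma at an adjusted p under 0.05 called 16.4% of all tested genes higher and 12.7% lower in iTreg minus nTreg. Those shares were 15.6% and 21% in ex-iTreg minus iTreg and 18.4% and 19% in ex-iTreg minus nTreg. Of 13 tested myeloid markers 11 were higher in iTreg than nTreg arrays and 12 were lower in ex-iTreg than iTreg arrays. The log2 of their summed signal was 13.09 and 13.10 in nTreg, 13.61 and 13.68 in iTreg and 13.09 and 13.05 in ex-iTreg arrays. In ex-iTreg minus nTreg 6 myeloid markers were higher and 0 lower (median 0.391; C1qa by 0.64 and Csf1r by 0.499). Summed B cell markers read 12.34 and 12.33 in nTreg, 12.23 and 12.25 in iTreg and 11.25 and 11.19 in ex-iTreg arrays, although Cd79a and Pax5 were near background in all; 3 of 4 tested (Cd79b, Ighm and Ms4a1) were lower in ex-iTreg than iTreg arrays. Cd79b and Ms4a1 were also lower in iTreg than nTreg arrays (-1.188 and -1.102). Ms4a1 read 4.596 and 4.628 in iTreg arrays, under the filter level, so its size is uncertain. Markers of CD8 T and NK cells summed to 8.51 and 8.39, 8.03 and 8.18, and 9.58 and 9.50, in the same order of populations. Of 4 tested, 3 (Cd8a, Eomes and Klrd1) were higher in ex-iTreg than iTreg arrays, while Cd8b1 was lower there (-0.753) and against nTreg (-1.84). Cd8b1 read 5.18 and 5.353 in ex-iTreg arrays, under the filter level, so these 2 sizes are uncertain. Of 7 tested genes of CD4 T cell identity, 4 were lower and 2 higher in ex-iTreg than nTreg arrays. Erythroid markers summed to 11.23 and 11.19, 11.47 and 11.43, and 11.08 and 11.03, in the same order of populations. All 3 tested (Alas2, Slc4a1 and Tfrc) were lower in ex-iTreg than iTreg arrays, and 2 (Alas2 and Slc4a1) higher in iTreg than nTreg arrays. None was called in ex-iTreg minus nTreg. Of plasma cell, dendritic cell and stromal markers, 4, 3 and 3 were tested, and at most 2 of a list were called in a comparison. The part of these differences in the results that follow was not tested.

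As a set, chaperone genes had medians close to those of all genes. The median log2 difference over the 58 tested members was -0.049 for iTreg minus nTreg, 0.037 for ex-iTreg minus iTreg and 0.029 for ex-iTreg minus nTreg, against 0.036, -0.023 and 0.025 over all tested genes. In iTreg minus nTreg, 9 members were higher and 11 lower by limma (adjusted p under 0.05 over 23484 probe sets), where 16.4% of all tested genes were called higher and 12.7% lower. Those counts are 15.5% and 19% of the members. In ex-iTreg minus iTreg, 14 were higher and 8 lower, or 24.1% and 13.8%, against 15.6% and 21% of genes. In ex-iTreg minus nTreg, 15 were higher and 9 lower, or 25.9% and 15.5%, against 18.4% and 19% of genes. In either direction the members called were 20, 22 and 24, or 34.5%, 37.9% and 41.4%, against 29.1%, 36.6% and 37.4% of genes, so the share of members called lay near the background in each comparison. Without 1 array at a time the count for iTreg minus nTreg ranged from 8 (without iTreg pool 2) to 15, with 12 without nTreg pool 1 or iTreg pool 1; for ex-iTreg minus iTreg it ranged from 11 (without either ex-iTreg pool) to 21, with 12 without iTreg pool 1.

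**Figure D1:**
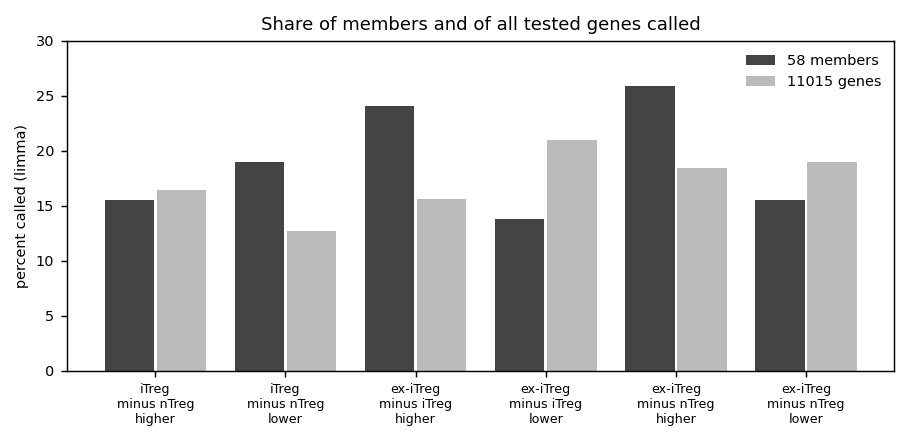
Percent of the 58 tested members (dark bars) and of all 11015 tested genes (light bars) called higher or lower by limma at an adjusted p under 0.05, for each comparison of 2 populations with 2 arrays each. Members called higher in ex-iTreg arrays made up 24.1% and 25.9% against 15.6% and 18.4% of genes; the other shares of members ranged from 13.8% to 19%.

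Sizes were small. A difference of 2-fold or more was reached by 1, 1 and 3 members in the 3 comparisons, where 2.24%, 3.54% and 5.79% of genes reached it. Dnajc12 was the member in iTreg minus nTreg, Dnajc6 the one in ex-iTreg minus iTreg, and Hspa2, Dnajc12 and Hspb1 those in ex-iTreg minus nTreg. A moderated F test over the 3 populations called 30 of 58 members (adjusted p under 0.05, limma), 51.7% against 49.7% of genes. The highest mean of these 30 lay in ex-iTreg arrays for 17 (56.7%), in nTreg arrays for 9 (30%) and in iTreg arrays for 4 (13.3%). Over the 5473 genes called by the F test the corresponding shares were 35.1%, 31.2% and 33.7%. The plot of all members shows both directions in most families.

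**Figure D2:**
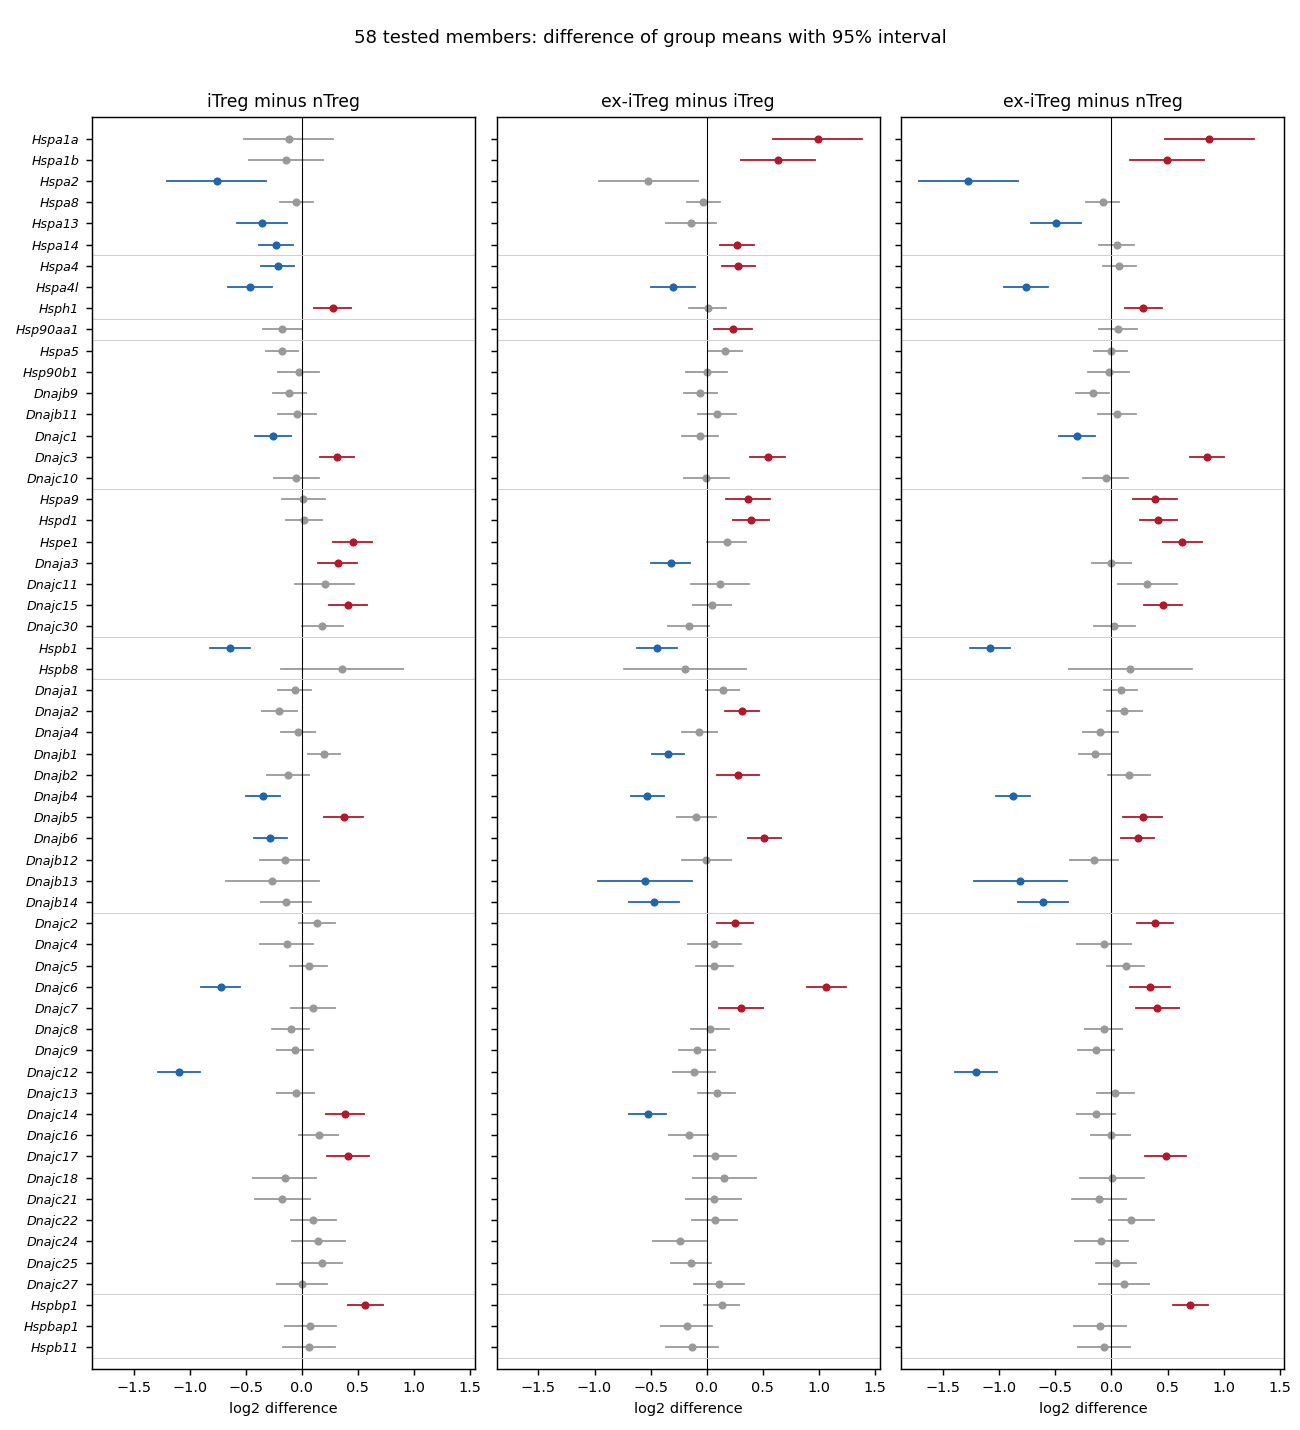
Log2 difference of group means (points) with its 95% interval from limma (lines) for the 58 tested members, grouped by family, in 3 comparisons. Red marks members called higher, blue lower, grey neither; Dnajc3 is red in all 3 panels, Hspb1, Dnajb4 and Hspa4l are blue in all 3.

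The stress-inducible Hsp70 genes were higher in ex-iTreg arrays than in the populations that kept the reporter. Hspa1a read 6.30 and 6.14 in nTreg, 6.11 and 6.10 in iTreg and 6.83 and 7.36 in ex-iTreg arrays. Both ex-iTreg arrays lay above the other 4, and the 2 ex-iTreg values lay further apart than those of any other population. The log2 difference (± its standard error, 2 arrays per group here and below) was 0.99 ± 0.17 (limma, adjusted p = 0.00521) in ex-iTreg minus iTreg and 0.87 ± 0.17 (limma, adjusted p = 0.00784) in ex-iTreg minus nTreg. Hspa1b, its near-identical neighbour on chromosome 17, read 9.59 and 9.29 in nTreg, 9.26 and 9.34 in iTreg and 9.78 and 10.09 in ex-iTreg arrays. It too was highest in both ex-iTreg arrays. It rose by 0.64 ± 0.14 (limma, adjusted p = 0.0132) relative to iTreg, a call not kept when iTreg pool 1 or ex-iTreg pool 2 was left out (adjusted p from 0.0659 to 0.0715). Relative to nTreg the difference was 0.50 ± 0.14 (limma, adjusted p = 0.0315), not kept when nTreg pool 2, either iTreg pool or ex-iTreg pool 2 was left out (adjusted p from 0.0517 to 0.155). Its other 2 probe sets gave larger contrasts with iTreg, 0.704 and 0.855 (adjusted p = 0.00102 and 0.000389, limma), and 0.515 and 0.565 with nTreg. How far these probe sets separate Hspa1a from Hspa1b transcripts was not tested, and the genes are not counted as independent. In iTreg minus nTreg neither gene passed on the probe set used, at -0.12 ± 0.17 (limma, adjusted p = 0.634) and -0.14 ± 0.14 (limma, adjusted p = 0.486), while 1 other Hspa1b probe set was lower there (-0.29, adjusted p = 0.025).

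Of the other Hsp70 genes, Hspa8, the main Hsp70 of unstressed cells, read 13.56 and 13.58 in nTreg, 13.53 and 13.50 in iTreg and 13.47 and 13.51 in ex-iTreg arrays. All 6 values lay close together, no comparison passed, and the 95% interval of ex-iTreg minus nTreg ran from -0.23 to 0.07. Of its 3 other probe sets 1 was called, higher by 0.42 in iTreg minus nTreg (limma, adjusted p = 0.0068) and by 0.22 in ex-iTreg minus nTreg (0.0442). Hspa2, a form best known from the testis, read 7.47 and 7.35 in nTreg, 6.93 and 6.38 in iTreg and 6.01 and 6.26 in ex-iTreg arrays. Its nTreg arrays lay above all others, and the 2 iTreg arrays were far apart. It was 2.42-fold lower in ex-iTreg than nTreg arrays, -1.28 ± 0.18 (limma, adjusted p = 0.00255). In iTreg minus nTreg it fell by 0.76 on the log2 scale (adjusted p = 0.025, limma), not kept when either nTreg pool or iTreg pool 2 was left out (adjusted p from 0.0664 to 0.0952). Hspa13, a microsomal Hsp70 relative, read 9.25 and 9.25 in nTreg, 9.02 and 8.79 in iTreg and 8.70 and 8.82 in ex-iTreg arrays and was highest in both nTreg arrays. It was lower in ex-iTreg arrays at -0.49 ± 0.09 (limma, adjusted p = 0.00757), not kept when ex-iTreg pool 1 was left out (adjusted p = 0.0549), and in iTreg arrays at -0.35 ± 0.09 (limma, adjusted p = 0.0332), not kept when either nTreg pool, iTreg pool 2 or either ex-iTreg pool was left out (adjusted p from 0.056 to 0.141). Another Hspa13 probe set fell by 0.72 in iTreg minus nTreg and rose by 0.38 in ex-iTreg minus iTreg (limma, adjusted p = 0.00148 and 0.00961), and 1 was not called in either. Hspa14, a ribosome-associated Hsp70, differed by -0.23 ± 0.06 (limma, adjusted p = 0.0405) in iTreg minus nTreg and by 0.27 ± 0.06 (limma, adjusted p = 0.0176) in ex-iTreg minus iTreg. The first was not kept when any 1 of the 6 arrays was left out (adjusted p from 0.071 to 0.134) and the second not kept when either iTreg pool or either ex-iTreg pool was left out (adjusted p from 0.0571 to 0.105). Another Hspa14 probe set was lower in ex-iTreg than nTreg arrays (-0.281, adjusted p = 0.0338), where the one used differed by 0.045.

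The Hsp110 genes, exchange factors that reset Hsp70, went in different directions. Hspa4l read 8.36 and 8.35 in nTreg, 7.94 and 7.85 in iTreg and 7.50 and 7.68 in ex-iTreg arrays, in nTreg arrays above all iTreg arrays and in those above all ex-iTreg arrays. On the probe set used it fell at each contrast, -0.46 ± 0.08 (limma, adjusted p = 0.00904) in iTreg minus nTreg, -0.30 ± 0.08 (limma, adjusted p = 0.0291) in ex-iTreg minus iTreg and -0.77 ± 0.08 (limma, adjusted p = 0.000745) in ex-iTreg minus nTreg. The first call was not kept when iTreg pool 2 was left out (adjusted p = 0.0558) and the second not kept when either iTreg pool or ex-iTreg pool 1 was left out (adjusted p from 0.0645 to 0.152), while the third held without any 1 array. The other tested Hspa4l probe sets had the same signs but were not all called. In iTreg minus nTreg they differed by -0.334 (called), -0.237, -0.327 and -0.185. In ex-iTreg minus iTreg they differed by -0.331 and -0.343 (called) and by -0.103 and -0.061. In ex-iTreg minus nTreg they differed by -0.665 and -0.58 (called) and by -0.43 and -0.247. With probe sets averaged the ex-iTreg minus iTreg call was lost (limma, adjusted p = 0.0521). Hsph1, the inducible Hsp110, read 10.36 and 10.34 in nTreg, 10.68 and 10.57 in iTreg and 10.65 and 10.61 in ex-iTreg arrays. Both nTreg arrays lay below the other 4, at 0.28 ± 0.07 (limma, adjusted p = 0.0263) for iTreg and 0.28 ± 0.07 (limma, adjusted p = 0.0187) for ex-iTreg arrays. Those calls were not kept when any 1 of the 6 arrays was left out (adjusted p from 0.0548 to 0.122) and not kept when either nTreg pool or either ex-iTreg pool was left out (adjusted p from 0.0506 to 0.103). A second Hsph1 probe set differed by -0.185 and 0.16 in the same contrasts (limma, adjusted p = 0.187 and 0.232) and was not called there, but was higher in ex-iTreg than iTreg arrays (0.344, adjusted p = 0.0297). Hspa4 cannot be given a direction. Its most intense probe set differed by -0.21 ± 0.06 (limma, adjusted p = 0.0426) in iTreg minus nTreg and 0.28 ± 0.06 (limma, adjusted p = 0.0135) in ex-iTreg minus iTreg, and a second one by -0.53 and 0.85. The remaining 2 had the opposite signs. They differed by 0.29 and -0.86 (limma, adjusted p = 0.227 and 0.0085) and by 0.31 and -0.49 (0.0168 and 0.00251). The call of the probe set used was not kept when any 1 of the 6 arrays was left out (adjusted p from 0.0837 to 0.161) for the first contrast and not kept when iTreg pool 1 or either ex-iTreg pool was left out (adjusted p from 0.0689 to 0.0755) for the second.

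**Figure D3:**
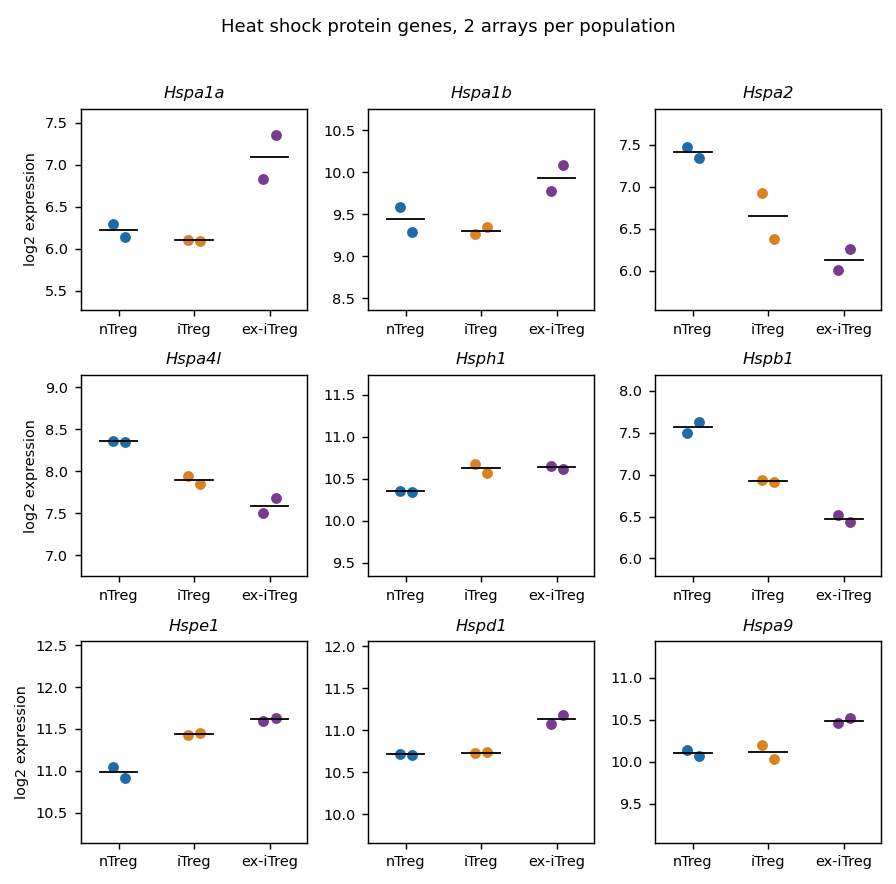
Log2 expression of 9 heat shock protein genes in each of the 6 arrays (points) with the mean of each population (lines); every panel spans the same log2 range around its own mean, and levels are not comparable between genes. Hspa1a and Hspa1b are highest in ex-iTreg arrays, Hspa2, Hspa4l and Hspb1 are highest in nTreg arrays, and Hspe1, Hspd1 and Hspa9 are highest in ex-iTreg arrays.

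Hsp90aa1, the inducible cytosolic Hsp90, read 12.62 and 12.70 in nTreg, 12.52 and 12.45 in iTreg and 12.68 and 12.76 in ex-iTreg arrays, with the iTreg arrays lowest. Its difference in ex-iTreg minus iTreg was 0.23 ± 0.07 (limma, adjusted p = 0.041), not kept when either iTreg pool or either ex-iTreg pool was left out (adjusted p from 0.0856 to 0.199). The other contrasts did not pass on that probe set, although iTreg minus nTreg was called with an intensity trend in the prior (limma, adjusted p = 0.00275). Of its 2 other tested probe sets, 1 was also higher in ex-iTreg than iTreg arrays (0.288, adjusted p = 0.0132). The other was lowest in nTreg arrays instead, 0.226 for iTreg minus nTreg and 0.322 for ex-iTreg minus nTreg (adjusted p = 0.0434 and 0.01), and differed by 0.096 in ex-iTreg minus iTreg. Its sister Hsp90ab1 is not analysed here.

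Hspb1, the small heat shock protein Hsp27 that holds unfolded proteins and binds actin, fell from nTreg through iTreg to ex-iTreg arrays. It read 7.50 and 7.63 in nTreg, 6.93 and 6.91 in iTreg and 6.52 and 6.43 in ex-iTreg arrays, with no overlap between any 2 populations. The differences were -0.64 ± 0.07 (limma, adjusted p = 0.00201) in iTreg minus nTreg, -0.45 ± 0.07 (limma, adjusted p = 0.00516) in ex-iTreg minus iTreg and -1.09 ± 0.07 (limma, adjusted p = 0.000119) in ex-iTreg minus nTreg, the last a 2.12-fold decrease. Every one of these calls held without any 1 array. A second probe set fell as well (-0.415, -0.37 and -0.79). Of the other small heat shock proteins, Hspb8 passed the filter and differed by 0.36 ± 0.23 (limma, adjusted p = 0.278) in iTreg minus nTreg and by less in the others, with its nTreg arrays at 4.965 and 5.68. Hspb2, Hspb3, Hspb6, Hspb7 and Hspb9 were not tested.

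Among ER chaperones Dnajc3 rose at each contrast on the probe set used. This gene, known as P58IPK, encodes an ER J protein that also restrains the kinase PERK. It read 10.16 and 10.21 in nTreg, 10.50 and 10.49 in iTreg and 11.06 and 11.01 in ex-iTreg arrays, and the 3 populations did not overlap. The differences were 0.31 ± 0.06 (limma, adjusted p = 0.0144) for iTreg minus nTreg, 0.54 ± 0.06 (limma, adjusted p = 0.00135) for ex-iTreg minus iTreg and 0.85 ± 0.06 (limma, adjusted p = 0.000165) for ex-iTreg minus nTreg, the last a 1.81-fold increase. The first was not kept when nTreg pool 1 or either iTreg pool was left out (adjusted p from 0.0515 to 0.0666); the others held without any 1 array. Its 4 other probe sets rose in both ex-iTreg contrasts (0.59 to 0.87 against iTreg and 0.86 to 1.08 against nTreg, adjusted p at most 0.0379, limma). In iTreg minus nTreg they differed by 0.362, 0.212, 0.297 and 0.275, and only the first of these was called (limma, adjusted p = 0.0165).

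The central ER chaperones moved less. Hspa5, known as BiP, the ER Hsp70 and main sensor of ER load, read 13.26 and 13.24 in nTreg, 13.08 and 13.06 in iTreg and 13.24 and 13.24 in ex-iTreg arrays. The iTreg arrays were lowest, but no contrast passed on that probe set: -0.17 ± 0.06 (limma, adjusted p = 0.0722) in iTreg minus nTreg, 0.17 ± 0.06 (limma, adjusted p = 0.072) in ex-iTreg minus iTreg, and an interval of -0.15 to 0.14 in ex-iTreg minus nTreg. A second Hspa5 probe set was higher in ex-iTreg than iTreg arrays (0.247, adjusted p = 0.0298), and the remaining one differed by -0.153 without passing. The first was called in iTreg minus nTreg after quantile normalization (adjusted p = 0.049, limma), and in both iTreg contrasts with an intensity trend in the prior (0.000211 and 0.000236) or a stricter filter (0.0391 and 0.0392). Hsp90b1, the ER Hsp90 (gp96) needed for integrins and Toll-like receptors, differed by -0.03 ± 0.07 (limma, adjusted p = 0.822) and 0.00 ± 0.07 (limma, adjusted p = 0.991) on the probe set used. Its other probe set differed by -0.57 and 0.66 (adjusted p = 0.00207 and 0.000788, limma), lowest in iTreg arrays. Dnajb9, an ER J protein that acts on BiP, read 11.65 and 11.64 in nTreg, 11.52 and 11.55 in iTreg and 11.46 and 11.49 in ex-iTreg arrays and did not pass, at -0.17 ± 0.06 (limma, adjusted p = 0.075) in ex-iTreg minus nTreg. That difference was called with the intensity trend (0.00243), the stricter filter (0.0422) or probe sets averaged per gene (0.0493). Dnajb11 and Dnajc10, also J proteins of the ER lumen, did not pass in any contrast (95% intervals within -0.25 to 0.26). Dnajc1, an ER membrane J protein, was lower in iTreg arrays at -0.25 ± 0.07 (limma, adjusted p = 0.0323), not kept when nTreg pool 1, either iTreg pool or either ex-iTreg pool was left out (adjusted p from 0.0667 to 0.143), and in ex-iTreg arrays at -0.31 ± 0.07 (limma, adjusted p = 0.0125), not kept when either ex-iTreg pool was left out (adjusted p from 0.0631 to 0.0733). Another Dnajc1 probe set was lower in ex-iTreg than iTreg arrays (-0.597, adjusted p = 0.0106), where the one used differed by -0.057. The ER stress element letters were found in Dnajc3, Hspa5 and Hsp90b1. Differences of these genes in ex-iTreg minus nTreg were 0.85, -0.008 and -0.025. Whether the letters bear on expression was not tested.

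Mitochondrial chaperones were higher in ex-iTreg than nTreg arrays in 4 of 7 cases and lower in none, with a median difference of 0.39; 18.4% of all tested genes were called higher there. Hspe1 and Hspd1 encode the lid and barrel of the mitochondrial chaperonin (Hsp10 and Hsp60). Hspe1 read 11.05 and 10.91 in nTreg, 11.42 and 11.45 in iTreg and 11.60 and 11.63 in ex-iTreg arrays. Its nTreg arrays lay below all others, 0.45 ± 0.07 (limma, adjusted p = 0.00597) for iTreg and 0.63 ± 0.07 (limma, adjusted p = 0.000941) for ex-iTreg arrays, and both calls held without any 1 array. Its other probe set rose in both contrasts too (0.29 and 0.53). Hspd1 read 10.72 and 10.71 in nTreg, 10.73 and 10.74 in iTreg and 11.07 and 11.18 in ex-iTreg arrays. It was higher in both ex-iTreg arrays than in the other 4, 0.40 ± 0.07 (limma, adjusted p = 0.00553) against iTreg and 0.42 ± 0.07 (limma, adjusted p = 0.00406) against nTreg, and these calls held without any 1 array. Relative to nTreg, iTreg arrays were thus higher for Hspe1 and differed by 0.02 ± 0.07 (limma, adjusted p = 0.83) for Hspd1. The genes share a promoter region and its heat shock element letters. Neither the difference between the 2 genes nor a part of these letters in it was tested.

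Hspa9 (mortalin), the mitochondrial Hsp70 that pulls proteins through the import channel, read 10.13 and 10.07 in nTreg, 10.20 and 10.03 in iTreg and 10.46 and 10.52 in ex-iTreg arrays, highest in both ex-iTreg arrays. Its difference was 0.37 ± 0.08 (limma, adjusted p = 0.0137) against iTreg, not kept when iTreg pool 2 or either ex-iTreg pool was left out (adjusted p from 0.0543 to 0.0829), and 0.39 ± 0.08 (limma, adjusted p = 0.0117) against nTreg, not kept when nTreg pool 2 or ex-iTreg pool 2 was left out (adjusted p from 0.0508 to 0.0733). The other tested Hspa9 probe sets were not called against iTreg (0.214 and 0.267, limma, adjusted p = 0.07 and 0.155). Against nTreg they differed by 0.373 and 0.383 (limma, adjusted p = 0.0107 and 0.0602). Dnajc15, a J protein of the import motor, read 9.35 and 9.22 in nTreg, 9.68 and 9.71 in iTreg and 9.74 and 9.74 in ex-iTreg arrays. Both nTreg arrays were lowest, 0.42 ± 0.07 (limma, adjusted p = 0.00767) for iTreg and 0.46 ± 0.07 (limma, adjusted p = 0.00331) for ex-iTreg arrays, and both calls held without any 1 array. Dnaja3 (Tid1), a mitochondrial J protein, was highest in iTreg arrays at 8.21 and 8.26, against 7.93 and 7.90 in nTreg and 7.85 and 7.98 in ex-iTreg arrays. Its calls at 0.32 ± 0.07 (limma, adjusted p = 0.0204) in iTreg minus nTreg and -0.32 ± 0.07 (limma, adjusted p = 0.0158) in ex-iTreg minus iTreg were each sensitive to the arrays used, the first not kept when either nTreg pool or either iTreg pool was left out (adjusted p from 0.0524 to 0.0985) and the second not kept when either iTreg pool or ex-iTreg pool 1 was left out (adjusted p from 0.0547 to 0.0952). Its other tested probe set did not pass in either contrast (0.16 and -0.01). Dnajc11 and Dnajc30 did not pass in any contrast.

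Of 11 tested J proteins of classes A and B outside these organelles, Dnajb4 showed the most regular decline. Dnajb4, a cytosolic Hsp40 of muscle and other tissues, read 9.56 and 9.56 in nTreg, 9.23 and 9.19 in iTreg and 8.66 and 8.71 in ex-iTreg arrays, with no overlap of populations. It fell by 0.35, 0.53 and 0.88 on the log2 scale in iTreg minus nTreg, ex-iTreg minus iTreg and ex-iTreg minus nTreg (limma, adjusted p = 0.00949, 0.00144 and 0.000144). The first call was not kept when iTreg pool 2 was left out (adjusted p = 0.0577). A weaker probe set fell in both ex-iTreg contrasts (-0.51 and -0.82) and differed by -0.305 in the first without passing. Dnajb14, an ER membrane J protein that faces the cytosol, read 8.01 and 7.88 in nTreg, 7.73 and 7.88 in iTreg and 7.41 and 7.25 in ex-iTreg arrays. It was lowest in both ex-iTreg arrays, -0.47 ± 0.09 (limma, adjusted p = 0.00937) against iTreg and -0.61 ± 0.09 (limma, adjusted p = 0.00319) against nTreg; the first was not kept when iTreg pool 2 or ex-iTreg pool 2 was left out (adjusted p from 0.0548 to 0.0622). Dnajb13, a testis and cilium J protein, was lowest in ex-iTreg arrays, whose mean of 5.44 lay under the filter level, so no size is given. That call was not kept when either nTreg pool, iTreg pool 2 or either ex-iTreg pool was left out (adjusted p from 0.0698 to 0.164) against iTreg and not kept when nTreg pool 1 or either ex-iTreg pool was left out (adjusted p from 0.0533 to 0.0672) against nTreg.

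Dnajb6, which keeps aggregation-prone proteins soluble, was lowest in iTreg and highest in ex-iTreg arrays. It read 11.86 and 11.88 in nTreg, 11.60 and 11.57 in iTreg and 12.11 and 12.10 in ex-iTreg arrays. The difference was 0.52 ± 0.06 (limma, adjusted p = 0.00142) in ex-iTreg minus iTreg, which held without any 1 array, and 2 of its 3 other probe sets rose too (1.185 and 0.52). In iTreg minus nTreg it was -0.28 ± 0.06 (limma, adjusted p = 0.0173), not kept when nTreg pool 2 or either iTreg pool was left out (adjusted p from 0.057 to 0.0867), and in ex-iTreg minus nTreg 0.23 ± 0.06 (limma, adjusted p = 0.0253), not kept when either nTreg pool or either ex-iTreg pool was left out (adjusted p from 0.0585 to 0.118). Dnajb1 (Hsp40), the inducible partner of Hspa1a, read 10.70 and 10.68 in nTreg, 10.89 and 10.88 in iTreg and 10.53 and 10.54 in ex-iTreg arrays. It was highest in iTreg and lowest in ex-iTreg arrays, -0.34 ± 0.06 (limma, adjusted p = 0.00608) in ex-iTreg minus iTreg, a direction opposite to that of Hspa1a and Hspa1b in the same contrast. The call held without any 1 array, but a second Dnajb1 probe set differed by -0.03 (adjusted p = 0.797, limma). In iTreg minus nTreg it differed by 0.20 ± 0.06 (limma, adjusted p = 0.0533), called only after quantile normalization (0.0289), with an intensity trend in the prior (0.00291) or with a stricter filter (0.0273). Dnaja1, the main class A partner of Hspa8, read 12.26 and 12.29 in nTreg, 12.20 and 12.23 in iTreg and 12.36 and 12.36 in ex-iTreg arrays and did not pass in any contrast. Dnaja2, of the same class, was higher in ex-iTreg than iTreg arrays at 0.32 ± 0.06 (limma, adjusted p = 0.0107), not kept when iTreg pool 1 or either ex-iTreg pool was left out (adjusted p from 0.0599 to 0.0623). Another Dnaja2 probe set was lower in iTreg than nTreg arrays (-0.39, adjusted p = 0.0123), where the one used differed by -0.201. Dnajb2, a J protein rich in neurons, differed by 0.28 ± 0.08 (limma, adjusted p = 0.0311) in that contrast, not kept when iTreg pool 1 or either ex-iTreg pool was left out (adjusted p from 0.115 to 0.144). Dnajb5 was higher than in nTreg arrays at 0.37 ± 0.07 (limma, adjusted p = 0.0122) in iTreg and 0.28 ± 0.07 (limma, adjusted p = 0.0251) in ex-iTreg arrays. Its calls were not kept when iTreg pool 2 was left out (adjusted p = 0.0702) and not kept when nTreg pool 2 or either ex-iTreg pool was left out (adjusted p from 0.0865 to 0.126), and its other tested probe set differed by -0.017 and 0.065. Dnaja4 and Dnajb12 did not pass on the probe sets used, although 2 other Dnaja4 probe sets were higher in ex-iTreg than iTreg arrays (0.29 and 0.41).

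**Figure D4:**
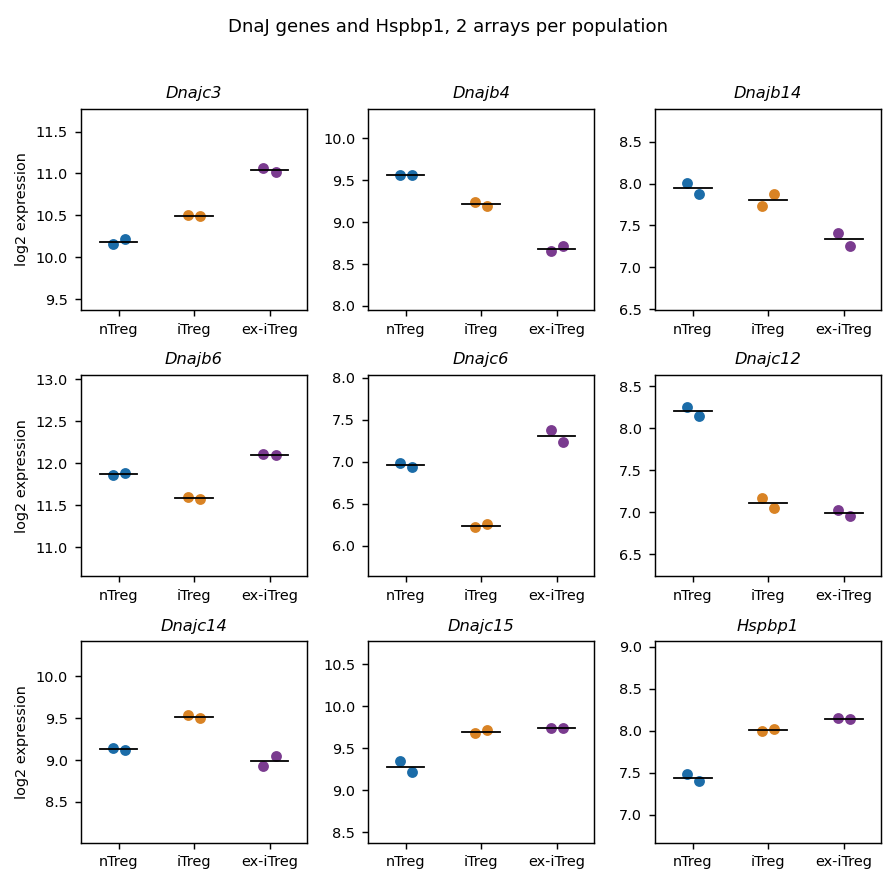
Log2 expression of 8 DnaJ genes and Hspbp1 in each of the 6 arrays (points) with population means (lines); panels share a log2 span but not a level. Dnajc3 rises and Dnajb4 falls from nTreg through iTreg to ex-iTreg arrays, Dnajc6 and Dnajb6 are lowest in iTreg arrays, Dnajc14 is highest there, and Dnajc12 stands high in nTreg arrays.

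Class C J proteins, which recruit Hsp70 to special tasks, held the largest differences of the DnaJ genes. Dnajc12, a partner of aromatic amino acid hydroxylases, read 8.25 and 8.15 in nTreg, 7.16 and 7.05 in iTreg and 7.03 and 6.96 in ex-iTreg arrays. Both nTreg arrays lay above every other array. The differences were -1.09 ± 0.08 (limma, adjusted p = 0.000365) in iTreg minus nTreg and -1.21 ± 0.08 (limma, adjusted p = 8.86e-05) in ex-iTreg minus nTreg, a 2.14-fold and a 2.31-fold decrease that held without any 1 array. In ex-iTreg minus iTreg it was -0.11 ± 0.08 (limma, adjusted p = 0.299) and did not pass. Dnajc6 (auxilin), which uncoats clathrin vesicles, read 6.98 and 6.93 in nTreg, 6.22 and 6.25 in iTreg and 7.37 and 7.23 in ex-iTreg arrays. The iTreg arrays were lowest, -0.72 ± 0.07 (limma, adjusted p = 0.00128) in iTreg minus nTreg and 1.07 ± 0.07 (limma, adjusted p = 0.000197) in ex-iTreg minus iTreg, a 2.1-fold increase, and these calls held without any 1 array. The smaller difference in ex-iTreg minus nTreg, 0.34 ± 0.07 (limma, adjusted p = 0.0125), was not kept when nTreg pool 2 or ex-iTreg pool 1 was left out (adjusted p from 0.0506 to 0.0799). Poly-A controls and the Gapdh 3′ to 5′ gap were highest in these same iTreg arrays.

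Dnajc14, which helps receptors leave the ER, ran the other way and read 9.14 and 9.12 in nTreg, 9.53 and 9.50 in iTreg and 8.93 and 9.05 in ex-iTreg arrays. It was highest in iTreg arrays, 0.39 ± 0.07 (limma, adjusted p = 0.00966) in iTreg minus nTreg, not kept when iTreg pool 1 was left out (adjusted p = 0.0516), and -0.53 ± 0.07 (limma, adjusted p = 0.00218) in ex-iTreg minus iTreg. Of its other probe sets 1 was called in the same directions (0.60 and -0.64) and 1 was not called (-0.11 and -0.01). Dnajc17, a splicing-associated J protein, read 10.64 and 10.63 in nTreg, 10.97 and 11.11 in iTreg and 11.06 and 11.17 in ex-iTreg arrays. It was lower in both nTreg arrays than elsewhere, 0.41 ± 0.08 (limma, adjusted p = 0.0112) for iTreg, not kept when iTreg pool 2 was left out (adjusted p = 0.0633), and 0.48 ± 0.08 (limma, adjusted p = 0.00403) for ex-iTreg arrays. Its other tested probe set differed by 0.10 and -0.24 (adjusted p = 0.594 and 0.19, limma), so the calls rest on 1 probe set. Dnajc2, the ribosome-bound J protein MPP11, was highest in ex-iTreg arrays at 0.39 ± 0.07 (limma, adjusted p = 0.00537) against nTreg and 0.25 ± 0.07 (limma, adjusted p = 0.0272) against iTreg, the latter not kept when either iTreg pool or either ex-iTreg pool was left out (adjusted p from 0.0533 to 0.133). Of its other tested probe sets, 1 rose in ex-iTreg minus iTreg (0.438) and was lower in iTreg minus nTreg (-0.383), and 1 differed by 0.011 in ex-iTreg minus iTreg. Neither was called in ex-iTreg minus nTreg (0.055 and 0.139), where the call was lost without _s_at probe sets (adjusted p = 0.718) or with probe sets averaged (0.0533). Dnajc7, which links Hsp70 to Hsp90, was higher in ex-iTreg arrays by 0.41 ± 0.08 (limma, adjusted p = 0.00937) than in nTreg, not kept when ex-iTreg pool 2 was left out (adjusted p = 0.065), and by 0.31 ± 0.08 (limma, adjusted p = 0.0267) than in iTreg arrays, not kept when iTreg pool 1 or either ex-iTreg pool was left out (adjusted p from 0.0595 to 0.146). The remaining 12 tested class C genes of this group did not pass in any contrast on the probe sets used, among them Dnajc5, a synaptic vesicle J protein, Dnajc8, a spliceosome protein, and Dnajc9, a histone co-chaperone. Another Dnajc5 probe set was higher in ex-iTreg arrays, by 0.311 than iTreg and 0.31 than nTreg (adjusted p = 0.00887 and 0.00872).

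Hspbp1, the exchange factor that the name rule took in, read 7.49 and 7.40 in nTreg, 7.995 and 8.02 in iTreg and 8.15 and 8.14 in ex-iTreg arrays. Both nTreg arrays were lowest, 0.57 ± 0.07 (limma, adjusted p = 0.00197) for iTreg and 0.70 ± 0.07 (limma, adjusted p = 0.00041) for ex-iTreg arrays, and both calls held without any 1 array; it has no other probe set. Hspbap1 and Hspb11 did not pass in any contrast.

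The 14 members not tested read between 3.07 and 5.47 in all arrays, near background. They were Dnajb3, Dnajb7, Dnajb8, Dnajc5b, Dnajc5g, Dnajc28, Hspa1l, Hspa12a, Hspa12b and the 5 small heat shock proteins named above; several of these genes are known from testis, muscle or heart.

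Probe sets of a gene did not always agree. Of the members called in iTreg minus nTreg, 5 had no other tested probe set, 9 had another one called in the same direction, 5 had others that were not called and 1, Hspa4, had another called the opposite way. For ex-iTreg minus iTreg these counts were 6, 10, 5 and 1, again Hspa4. For ex-iTreg minus nTreg they were 9, 11, 4 and 0.

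**Figure D5:**
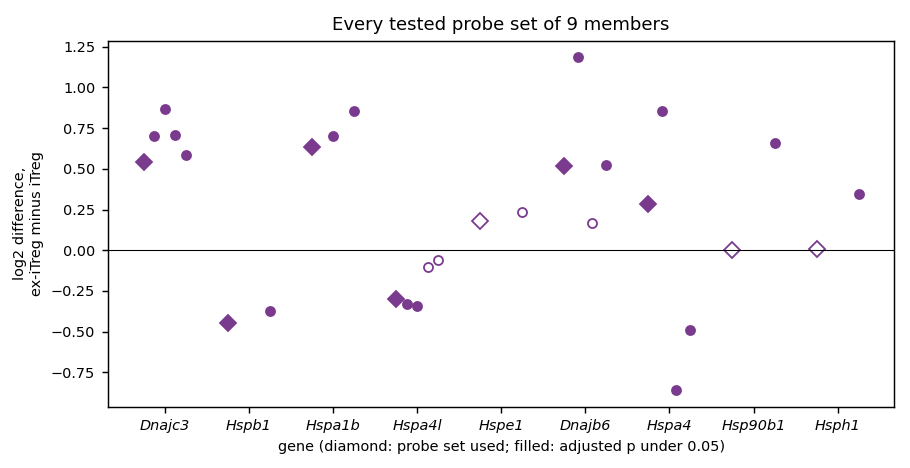
Log2 difference ex-iTreg minus iTreg for every tested probe set of 9 members; the diamond is the probe set used, circles are the others in order of falling mean, and filled symbols passed limma at an adjusted p under 0.05. The probe sets of Dnajc3, Hspb1 and Hspa1b lie on 1 side of zero, those of Hspa4 lie on both sides, and the used probe sets of Hsp90b1 and Hsph1 lie near zero where another one does not.

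Other genes of the folding machinery were taken from lists. For scale, 18.4% of all tested genes were called higher and 19% lower in ex-iTreg minus nTreg. These shares were 16.4% and 12.7% in iTreg minus nTreg and 15.6% and 21% in ex-iTreg minus iTreg. Of 12 tested Hsp90 cochaperones, 4 were higher and 0 lower in ex-iTreg minus nTreg (median 0.18). Sugt1, which links Hsp90 to ubiquitin ligases and innate receptors, rose by 0.84 ± 0.07 (limma, adjusted p = 0.000283), a call that held without any 1 array. Unc45a, a myosin chaperone, was called at 0.39 ± 0.09 (limma, adjusted p = 0.0136), a call not kept when nTreg pool 2 or either ex-iTreg pool was left out (adjusted p from 0.0526 to 0.0814). In iTreg minus nTreg 3 were higher and 1 lower, Fkbp5, a glucocorticoid-induced immunophilin, at -0.49 ± 0.12 (limma, adjusted p = 0.0236), a call not kept when either nTreg pool or iTreg pool 2 was left out (adjusted p from 0.0622 to 0.0874). In ex-iTreg minus iTreg 1 was higher, Sugt1 at 0.65 ± 0.07 (limma, adjusted p = 0.00112), and 2 lower, Stip1 at -0.24 ± 0.06 (limma, adjusted p = 0.0238), a call not kept when either iTreg pool or either ex-iTreg pool was left out (adjusted p from 0.0878 to 0.111), and Chordc1 at -0.31 ± 0.06 (limma, adjusted p = 0.0093), a call not kept when iTreg pool 1 or ex-iTreg pool 2 was left out (adjusted p from 0.051 to 0.0621). Of 11 tested Hsp70 cochaperones and exchange factors, 4 were higher and 1 lower in iTreg minus nTreg, 2 and 1 in ex-iTreg minus iTreg, and 2 and 0 in ex-iTreg minus nTreg. Sil1, the exchange factor of BiP, rose by 0.50 ± 0.07 (limma, adjusted p = 0.00216) in ex-iTreg minus nTreg, and Grpel1, that of mortalin, by 0.34 ± 0.06 (limma, adjusted p = 0.00789), a call not kept when ex-iTreg pool 2 was left out (adjusted p = 0.0591). Bag3, an inducible Hsp70 partner, was lower in ex-iTreg than iTreg arrays at -0.37 ± 0.07 (limma, adjusted p = 0.0112), a call not kept when either iTreg pool or either ex-iTreg pool was left out (adjusted p from 0.052 to 0.0652).

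A list of heat shock factors and partners also held Hspbp1, the Hsp70 exchange factor already counted among the members. Of its 3 tested genes, 1 was higher in iTreg than nTreg arrays (Hspbp1). In ex-iTreg minus iTreg 2 were lower (Hsf2 and Hsbp1). Hspbp1 was higher and Hsf2 lower in ex-iTreg than nTreg arrays. Hsf2 was tested and Hsf4 and Hsf5 were near background. Hsf2 was lower in ex-iTreg arrays, whose values of 4.76 and 5.02 lay under the filter level, and was called against iTreg (adjusted p = 0.0061, limma) and nTreg (0.00481). Its other probe set differed by -0.09 and -1.01. Hsf1 is not analysed here.

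The cytosolic chaperonin TRiC and its partner prefoldin, which fold actin and tubulin, were higher in ex-iTreg than nTreg arrays in 8 of 14 cases and lower in 0 (median 0.23). Tcp1 rose by 0.42 ± 0.06 (limma, adjusted p = 0.00271), a call that held without any 1 array. Cct6a was called at 0.32 ± 0.06 (limma, adjusted p = 0.00957), a call not kept when ex-iTreg pool 2 was left out (adjusted p = 0.0656), and Cct5 at 0.28 ± 0.06 (limma, adjusted p = 0.0133), a call not kept when either ex-iTreg pool was left out (adjusted p from 0.0676 to 0.0772). Against iTreg arrays 4 were higher and 1 lower (median 0.17), led by Vbp1 and Pfdn2 (0.49 and 0.43), and in iTreg minus nTreg 1 was higher and 1 lower. Of 10 genes of mitochondrial protein quality control, 4 were higher and 1 lower in ex-iTreg minus nTreg, 2 and 1 in ex-iTreg minus iTreg, and 2 and 0 in iTreg minus nTreg. Clpb, a mitochondrial disaggregase, rose by 0.53 ± 0.07 (limma, adjusted p = 0.00162) in ex-iTreg minus nTreg and held without any 1 array. Htra2, a protease, was lower there at -0.29 ± 0.06 (limma, adjusted p = 0.0116), a call not kept when either ex-iTreg pool was left out (adjusted p from 0.0635 to 0.0682). For scale, 18.4% of all tested genes were called higher and 19% lower in ex-iTreg minus nTreg.

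The 20 tested genes of ER folding and the unfolded protein response were mixed. In ex-iTreg minus iTreg 6 were higher and 8 lower (median 0.045), in ex-iTreg minus nTreg 6 and 5, and in iTreg minus nTreg 4 and 0. Of all tested genes 15.6% and 21%, 18.4% and 19%, and 16.4% and 12.7% were called in those directions. Eif2ak3, which encodes PERK, the kinase that Dnajc3 restrains, read 10.36 and 10.40 in nTreg, 10.12 and 10.20 in iTreg and 11.05 and 10.98 in ex-iTreg arrays. It rose by 0.85 ± 0.07 (limma, adjusted p = 0.00037) in ex-iTreg minus iTreg and by 0.63 ± 0.07 (limma, adjusted p = 0.000808) in ex-iTreg minus nTreg, held without any 1 array, and its 2 other probe sets rose as well. Sdf2l1, a partner of ER J proteins, rose by 0.46 ± 0.06 (limma, adjusted p = 0.00232) in ex-iTreg minus nTreg. Pdia4, a disulfide isomerase, was lower there at -0.55 ± 0.07 (limma, adjusted p = 0.0017). Ppp1r15a, a stress-induced phosphatase subunit that reverses PERK signalling, fell in ex-iTreg minus iTreg at -0.61 ± 0.07 (limma, adjusted p = 0.00107), and Edem1, of ER-associated degradation, at -0.49 ± 0.06 (limma, adjusted p = 0.0018). Every one of these 4 calls held without any 1 array. Trib3 and Ddit3 (CHOP), which PERK signalling induces, were higher in iTreg than nTreg arrays. Trib3 differed by 0.52 ± 0.10 (limma, adjusted p = 0.0137), a call lost without nTreg pool 2 or either iTreg pool. Ddit3 differed by 0.41 ± 0.08 (limma, adjusted p = 0.0142), a call lost without nTreg pool 2 or iTreg pool 2. The other probe set of each was not called there (0.35 for Trib3 and 0.24 for Ddit3). Ddit3 was also higher in ex-iTreg than nTreg arrays (0.44, limma, adjusted p = 0.00838), a call lost without ex-iTreg pool 1. It differed by 0.02 in ex-iTreg minus iTreg. Trib3 fell in ex-iTreg minus iTreg (-0.46, limma, adjusted p = 0.0159), a call lost without either iTreg pool or ex-iTreg pool 2.

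Immediate early genes, which respond within minutes to stimulation, were mixed. In ex-iTreg minus nTreg 1 of 16 was higher and 6 lower (median -0.03), in ex-iTreg minus iTreg 5 and 2, and in iTreg minus nTreg 1 and 5. The shares of all tested genes called in those directions were 18.4% and 19%, 15.6% and 21%, and 16.4% and 12.7%. Zfp36, an mRNA decay factor, read 11.03 and 11.04 in nTreg, 11.60 and 11.62 in iTreg and 10.19 and 10.26 in ex-iTreg arrays, and fell by 1.39 on the log2 scale in ex-iTreg minus iTreg (adjusted p = 4.34e-05, limma). Dusp1, a MAP kinase phosphatase, fell in both ex-iTreg contrasts at -0.57 ± 0.07 (limma, adjusted p = 0.00126) and -0.75 ± 0.07 (limma, adjusted p = 0.000318). Fosl2 instead rose in ex-iTreg minus iTreg at 0.625 ± 0.064 (limma, adjusted p = 0.000838). It was lower in iTreg minus nTreg at -0.651 ± 0.064 (limma, adjusted p = 0.00114). The other Fosl2 probe set differed by 0.39 and -0.09 there and was not called. Atf3, Btg2, Egr2 and Jund were also called higher in ex-iTreg than iTreg arrays. Calls of Zfp36, Dusp1 and Fosl2 held without any 1 array.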

How the data were processed

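Affymetrix Mouse430_2 arrays gave log2 values per probe set, which the authors deposited after RMA, according to the submitters' processing notes (per the labels); which software ran it is not given in the sources used here. Of 45101 probe sets 64 were controls, 34945 had 1 symbol in the platform annotation, 932 several and 9160 none. All 72 members matched a RefSeq gene by Entrez identifier. Promoter windows come from RefSeq GRCm38.p6.

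A probe set was tested where at least 2 arrays exceeded 5.48, the median over all values; 23484 did. The test was limma 3.58.1 (R 4.3.3) with 1 mean per group, 3 residual and 3.37 prior degrees of freedom, and Benjamini-Hochberg adjustment over all probe sets tested, at a threshold of 0.05. With 2 arrays against 2, the smallest two-sided exact p is 0.33. The scripts were tested on simulated data. The number of arrays limits precision.

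Values in every array were to be given for a fixed list of central chaperones and, in each comparison, for the 8 called members with the largest difference in each direction whose arrays did not overlap; the pathway lists were to give at most 3 called genes per comparison, ranked by t. Members called outside this rule are given with their family, and some list genes are given beyond it. The members, families and lists were chosen with earlier results of these data known. Alternatives were other filters, normalizations, priors and probe set choices, a replicate block, only the 4 arrays compared, and each array left out.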

Additional observations from a re-analysis of the deposited data

How the results depend on the processing

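Counts of called members stayed within 1.5 times under every other filter, normalization, prior and probe set choice run, with 14 to 25 for iTreg minus nTreg, 16 to 26 for ex-iTreg minus iTreg and 21 to 29 for ex-iTreg minus nTreg. Leaving out 1 array at a time gave 8 to 15, 11 to 21 and 16 to 23, and 20 to 28 by the F test. The median differences moved by less than the spread between arrays in each alternative, although that of ex-iTreg minus nTreg changed sign without nTreg pool 2. Of 66 called differences of single members, 29 held without any 1 array and 37 were lost without at least 1. Replicate numbers did not pair the arrays (correlations of deviations -0.01, -0.09 and -0.04); with the number as a replicate block 16, 19, 23 and, by the F test, 30 members were called. Without _x_at and _s_at probe sets Dnajb5 in iTreg minus nTreg differed by -0.017 and Dnajc2 by -0.383, and with all tested probe sets averaged Hspa4 in ex-iTreg minus iTreg differed by -0.052; the first 2 signs come from another probe set standing for the gene, and that of Hspa4 from averaging probe sets of opposite sign. With the intensity trend in the prior, 13 calls were gained. In iTreg minus nTreg they were Dnaja2 (limma, adjusted p = 0.000828), Dnajb1 (0.00291), Dnajb9 (0.033), Hsp90aa1 (0.00275) and Hspa5 (0.000211). In ex-iTreg minus iTreg they were Dnaja1 (0.00316), Hspa2 (0.0128), Hspa5 (0.000236) and Hspe1 (0.00587). In ex-iTreg minus nTreg they were Dnaja2 (0.0283), Dnajb1 (0.0138), Dnajb9 (0.00243) and Hspa8 (0.04). Without a filter on low values 17 called differences of members lost their call, with the replicate block 8 and with only the 4 arrays compared 7. With probe sets averaged 12 lost it at the same sign, and Hspa4 in ex-iTreg minus iTreg lost it with the sign changed. The number of arrays limits what can be resolved.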

Other observations

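Probe sets annotated to both Dnajc19, a J protein of the mitochondrial import motor, and its pseudogene Dnajc19-ps were not members. The most intense of them read 9.34 and 9.23 in nTreg, 9.37 and 9.26 in iTreg and 9.54 and 9.58 in ex-iTreg arrays, highest in both ex-iTreg arrays.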
